A study of Mus musculus with 20 samples.

Results

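The transcripts of 37 genes of the amino acid response were followed in mouse retina. These are 10 transcription factors and stress genes around ATF4, 8 genes of amino acid and one-carbon synthesis, 5 amino acid transporter genes and 14 cytosolic aminoacyl tRNA synthetase genes. They were taken from a fixed list of gene symbols, and all 37 were found among the 35006 genes counted, of which 26509 had at least 1 read. The list was chosen with earlier results of these data known, so shares of members set beside those of all genes are descriptive. All 37 also passed the filter on low counts in each comparison.

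Retinal RNA came from 20 wild-type C57BL/6J mice, 1 retina and 1 library a mouse. N-acetyl-L-cysteine ethyl ester (NACET), an esterified form of N-acetylcysteine that enters cells and releases cysteine, was given in the drinking water for 5 days at 50 mg/kg a day, and control mice drank water. The young control group had 4 mice aged 119 days and the young NACET group 6 mice, 4 aged 129 days and 2 aged 119 days. The old control group had 4 mice aged 668 days, and the old NACET group 6 mice, with 2 aged 668, 2 aged 581 and 2 aged 574 days. Young control replicates 3 and 4 and young NACET replicates 5 and 6 were labelled female and the other mice male, and 1 old control library labelled male also expressed Xist, the transcript of the inactive X chromosome. Between 17.7 M and 31.1 M reads were counted to genes in each library, and levels are given as reads per 1000000 of these (CPM). Log2 fold changes come from fits that also scale the libraries by TMM normalization, so they can differ from ratios of CPM. Bulk retina does not tell fewer cells of a type from less RNA per cell.

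ATF4 is a basic leucine zipper transcription factor. When amino acids run short or unfolded protein, viral RNA or heme deficiency is sensed, kinases phosphorylate the initiation factor eIF2, general translation slows, and the Atf4 messenger is translated more. ATF4 then binds, often with C/EBP proteins, to elements in genes for amino acid uptake and synthesis and for the enzymes that charge tRNAs. Its activity is thus set largely by translation, and the level of the Atf4 messenger is an incomplete measure of it.

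The composite element bound by C/EBP and ATF proteins has the core TGATGNAA. It was searched on both strands of the RefSeq promoter windows of mouse build GRCm38.p6, 250 bases before to 50 bases after the start site. Of the 30 members with a window, 11 (36.7%) held the element, against 4.13% of 17491 protein-coding genes and 3.97% of all 32851 windows. It was found in 5 of 9 synthetase genes, 3 of 10 transcription and stress genes, 2 of 8 synthesis genes and 1 of 3 transporter genes with a window. Slc7a5, Slc1a5, Lars, Nars, Wars, Cars and Vars had no window. A match is a match of letters and does not show binding.

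A match in each of the 11 genes is printed because it is the sequence feature these genes share. Each line runs 5′ to 3′ on the strand of the gene, with the 8 bases of the element in capitals.
Trib3: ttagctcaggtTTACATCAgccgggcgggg (chr2:152344028-152344057, minus strand)
Chac1: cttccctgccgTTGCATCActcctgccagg (chr2:119351038-119351067, plus strand)
Nupr1: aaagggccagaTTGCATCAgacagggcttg (chr7:126625562-126625591, minus strand)
Asns: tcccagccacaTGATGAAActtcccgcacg (chr6:7693214-7693243, minus strand)
Pycr1: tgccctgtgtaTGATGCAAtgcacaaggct (chr11:120643833-120643862, minus strand)
Slc1a4: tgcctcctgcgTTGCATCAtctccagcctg (chr11:20332699-20332728, minus strand)
Aars: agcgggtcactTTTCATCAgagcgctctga (chr8:111033840-111033869, plus strand)
Gars: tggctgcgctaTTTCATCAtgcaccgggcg (chr6:55037960-55037989, plus strand)
Iars: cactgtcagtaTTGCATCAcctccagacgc (chr13:49682126-49682155, plus strand)
Tars: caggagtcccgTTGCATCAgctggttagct (chr15:11399655-11399684, minus strand)
Yars: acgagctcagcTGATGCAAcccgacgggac (chr4:129189895-129189924, plus strand)

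The element of Asns, the gene of asparagine synthetase, began 23 bases before the start site. That of Nupr1 began 110 bases, that of Chac1 193 bases and that of Pycr1 103 bases before it. In Slc1a4, Tars and Gars the element began 4, 15 and 30 bases before the start, and in Yars, Iars, Aars and Trib3 it began 3, 7, 9 and 14 bases after it. Of 15 further ATF4 target genes with a window, 6 (40.0%) held the element, while 0 of 11 genes of eIF2 and its kinases, 0 of 7 other cytosolic synthetase or scaffold genes and 0 of 15 mitochondrial synthetase genes did.

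In young control retina the members spanned a wide range of levels, given here as CPM per kb of exon so that genes can be compared. Atf4 was the highest at 158 ± 6.47 (SD, n = 4). The 14 synthetases lay between 9.18 for Vars and 67.1 for Nars, with a median of 25.8. The 5 transporters ranged from 3.15 for Slc1a5 to 37.98 for Slc3a2, which encodes the heavy chain that pairs with several light-chain transporters, with a median of 6.63. The 8 synthesis genes had a median of 7.82, from 0.332 for Pycr1, a proline synthesis gene, to 18.4 for Asns. The 10 transcription and stress genes had a median of 5.34 and spread the most, with Ddit4, an inhibitor of mTORC1, at 67.1 ± 4.66 and Cebpb at 0.614 ± 0.148. Nars, at 67.1 ± 2.53, and Ddit4 did not differ beyond their spread. Phgdh, which catalyses the first step of serine synthesis, lay at only 1.00 ± 0.444 CPM per kb. Of the 32-base windows of its transcript, 81.8% occurred at more than 1 place in the mm9 genome, so its counts and their differences are uncertain. The next highest shares were 16.0% for Iars and 5.46% for Slc3a2.

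**Figure D1:**
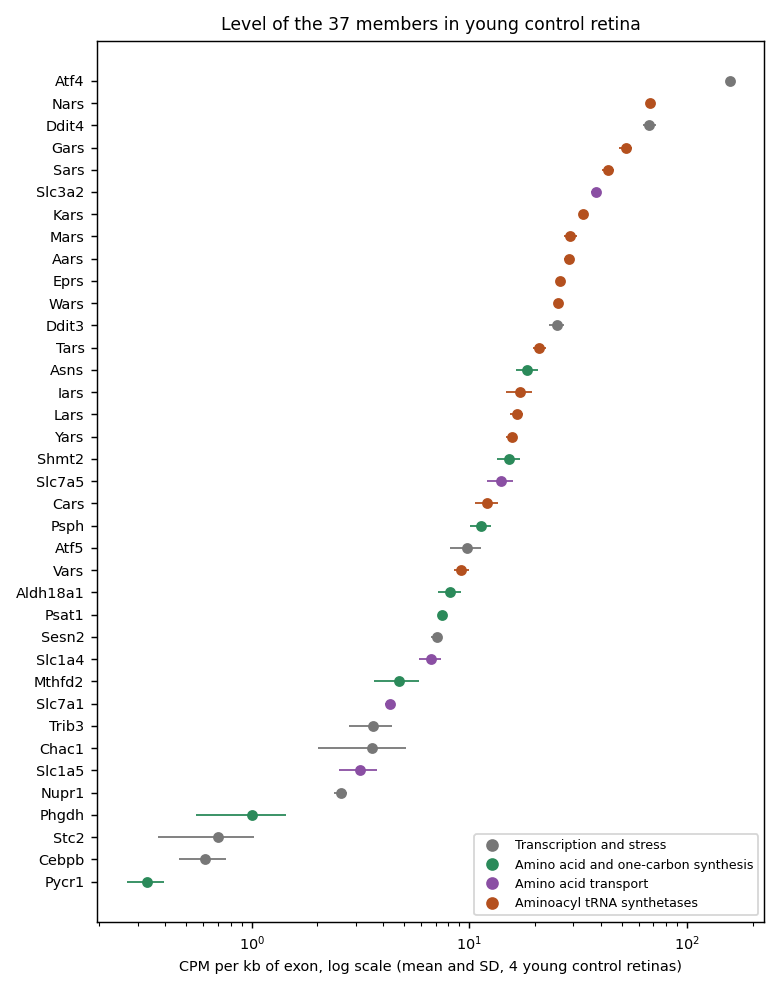
Level of the 37 members in young control retina, as CPM per kb of exon on a log axis. Points are means and bars SD over 4 retinas, coloured by class. Atf4 stands at the top at 158 and the 14 synthetases lie between 9.18 and 67.1, while Pycr1 is the lowest at 0.332.

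Gnat1, the gene of the rod transducin alpha subunit, was at 14462 CPM or more in all 20 libraries. Markers of other eye tissues were present in some libraries. The summed level of 5 lens markers was 5893 CPM in old NACET replicate 1 and at most 13.4 CPM in the other 19 libraries. The summed level of 6 markers of corneal and conjunctival epithelium was 396 CPM in old control replicate 2, 373 CPM in young NACET replicate 4 and 194 CPM in young NACET replicate 5, and at most 83.1 CPM elsewhere. Counts of members were therefore also made without those of these 4 libraries that took part in a comparison, a choice made after seeing the data. Among the members themselves, young control replicate 4 was the highest of its group for 25 of 37 genes and young NACET replicate 4 for 21, and old NACET replicate 2 was the lowest of its group for 20. The heat map of the members shows these columns.

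**Figure D2:**
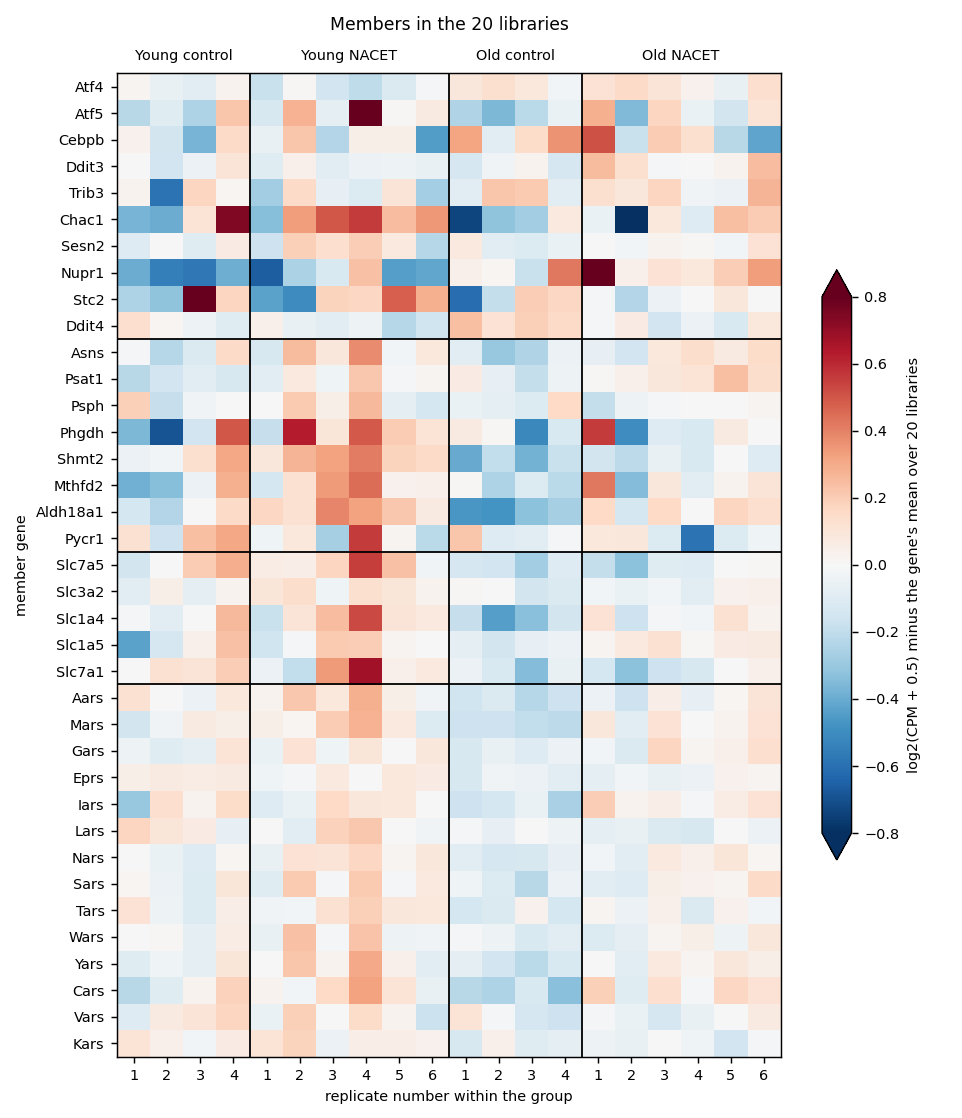
The 37 members (rows, by class) in the 20 libraries (columns, by group and replicate), as log2(CPM + 0.5) minus the mean of the gene over all libraries, with colours saturated at 0.8. Old control columns are mostly pale blue through the synthetase block, young NACET replicate 4 is red in many rows, and Nupr1 stands out in old NACET replicate 1.

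Aging was examined by comparing old with young control retinas. The synthetases and transporters were lower in old retina while the transcription and stress genes had no common direction, and 0 of the 37 genes passed the adjusted threshold. The adjusted p-values are from edgeR, corrected by Benjamini-Hochberg over all 16484 genes tested, and the threshold for a call was 0.05, which 1.42% of all genes passed. In this comparison 31 of 37 members had a negative log2 fold change, where 48.2% of all genes had a positive one. The aging values include the TMM scaling. In mean CPM, which lacks it, the same members were lower in old retina, but by less, and the other members were higher by more. At an unadjusted p under 0.05, 17 members (45.9%) were lower and 1 (2.70%) was higher, against 7.24% and 9.06% of all genes. DESeq2 called 9 members, 8 of them lower. Sex was not balanced, since 2 of the 4 young controls were labelled female. With labelled sex as a covariate 9 members were lower at an unadjusted p under 0.05, and without the libraries that expressed Xist, which leaves 2 young and 3 old controls, 6 were. Leaving out old control replicate 1 gave 11. Without young control replicate 1 edgeR called 4 members (Iars, Mars, Shmt2 and Slc7a5), and without young control replicate 2 it called 1 (Aldh18a1).

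Among the synthetases, which join each amino acid to its tRNA, 14 of 14 had a negative log2 fold change. Their values ran from -0.26 to -0.11 with a median of -0.16, where the median of all genes was -0.0068. Without the TMM scaling all 14 were also lower in mean CPM, but by less. The mean log2 level of the class in CPM was 6.646 ± 0.049 in young and 6.525 ± 0.017 in old controls (SD, n = 4 in both). Of the 14, 12 had an unadjusted p under 0.05, a number that dropped to 5 with sex as a covariate, to 2 without the Xist-expressing libraries, to 6 without old control replicate 1, to 7 without young control replicate 1 or 4 and to 8 without old control replicate 2, the library with corneal transcripts. The median stayed between -0.18 and -0.14 in all 18 alternatives. Aars, the alanyl synthetase, was at 281, 258, 250.1 and 275 CPM in the 4 young controls and at 231, 238, 220.3 and 230.1 CPM in the 4 old controls. Every old library was below every young one, and the log2 fold change was -0.26 (SE 0.06, adjusted p 0.0626). Mars, the methionyl synthetase, averaged 99.4 ± 6.80 CPM (± SD over 4 mice, as for all controls below, and over 6 mice for NACET groups) in the young and 88.2 ± 1.31 CPM in the old group, with no overlap and a log2 fold change of -0.22 (SE 0.05, adjusted p 0.0723). Eprs, which carries both the glutamyl and the prolyl enzyme, went from 187 ± 1.68 to 170.2 ± 5.22 CPM, again without overlap, at a log2 fold change of -0.18 (SE 0.05, adjusted p 0.102). Cars, the cysteinyl synthetase, had the most negative value of the class at -0.26 (SE 0.08, adjusted p 0.139), and its groups overlapped. The smallest difference was that of Gars, at -0.11 (SE 0.06, adjusted p 0.397).

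All 5 transporters were also lower, with a median log2 fold change of -0.30 and 3 of 5 at an unadjusted p under 0.05. With sex as a covariate the median was -0.15. Slc1a4, a neutral amino acid transporter that carries serine and alanine, was at 25.0, 23.7, 25.1 and 30.3 CPM in young and 22.2, 18.5, 19.9 and 22.7 CPM in old controls. No old library reached the lowest young one, and the log2 fold change was -0.37 (SE 0.09, adjusted p 0.0792). Slc7a1, a carrier of arginine and lysine, differed by -0.30 (SE 0.08, adjusted p 0.0843), and its groups did not overlap either. Slc7a5, the light chain that carries large neutral amino acids, had a log2 fold change of -0.31 (SE 0.09, adjusted p 0.111) with overlapping groups. Its partner Slc3a2 differed by -0.090 (SE 0.05, adjusted p 0.415), and Slc1a5, a glutamine carrier, by -0.079 (SE 0.12, adjusted p 0.798).

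Of the 8 synthesis genes, 7 were lower, with a median of -0.13 and 2 at an unadjusted p under 0.05. Shmt2, the mitochondrial enzyme that splits serine into glycine and a one-carbon unit, had the smallest adjusted p of all members. It was at 31.4, 31.9, 35.5 and 40.2 CPM in young and 24.4, 28.2, 24.8 and 28.6 CPM in old controls. The 4 old values all lay below the 4 young ones, with a log2 fold change of -0.43 (SE 0.10, adjusted p 0.0505). Leaving out young control replicate 1 gave an adjusted p of 0.0363, and with sex as a covariate the value was -0.30 at 0.249. Aldh18a1, which makes the precursor of proline and ornithine from glutamate, went from 32.4 ± 3.89 to 25.6 ± 1.90 CPM, without overlap and with a log2 fold change of -0.39 (SE 0.10, adjusted p 0.0753). The other 6 lay between -0.24 and 0.045, Psat1 of the serine pathway being the one with a positive value.

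The transcription and stress genes were split, 5 higher and 5 lower, with a median of -0.0060. Atf4 itself was at 280.3, 265, 259.6 and 282 CPM in young and 294, 302, 293 and 273 CPM in old controls. These groups overlapped, and the log2 fold change was 0.048 (SE 0.06, adjusted p 0.736). Nupr1, a small chromatin-associated stress protein, was the one member higher at an unadjusted p under 0.05. Its 4 young values, 6.65, 5.96, 5.84 and 6.70 CPM, lay below its 4 old values, 9.19, 9.04, 7.83 and 12.1 CPM, with a log2 fold change of 0.56 (SE 0.14, adjusted p 0.0753). Ddit3, which encodes CHOP, differed by -0.093 (SE 0.08, adjusted p 0.587). The largest negative value was that of Chac1, a glutathione-degrading enzyme, at -0.46, with a wide SE of 0.27. Trib3, Sesn2, Stc2, Atf5, Cebpb and Ddit4 had adjusted p-values of 0.373 or more.

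**Figure D3:**
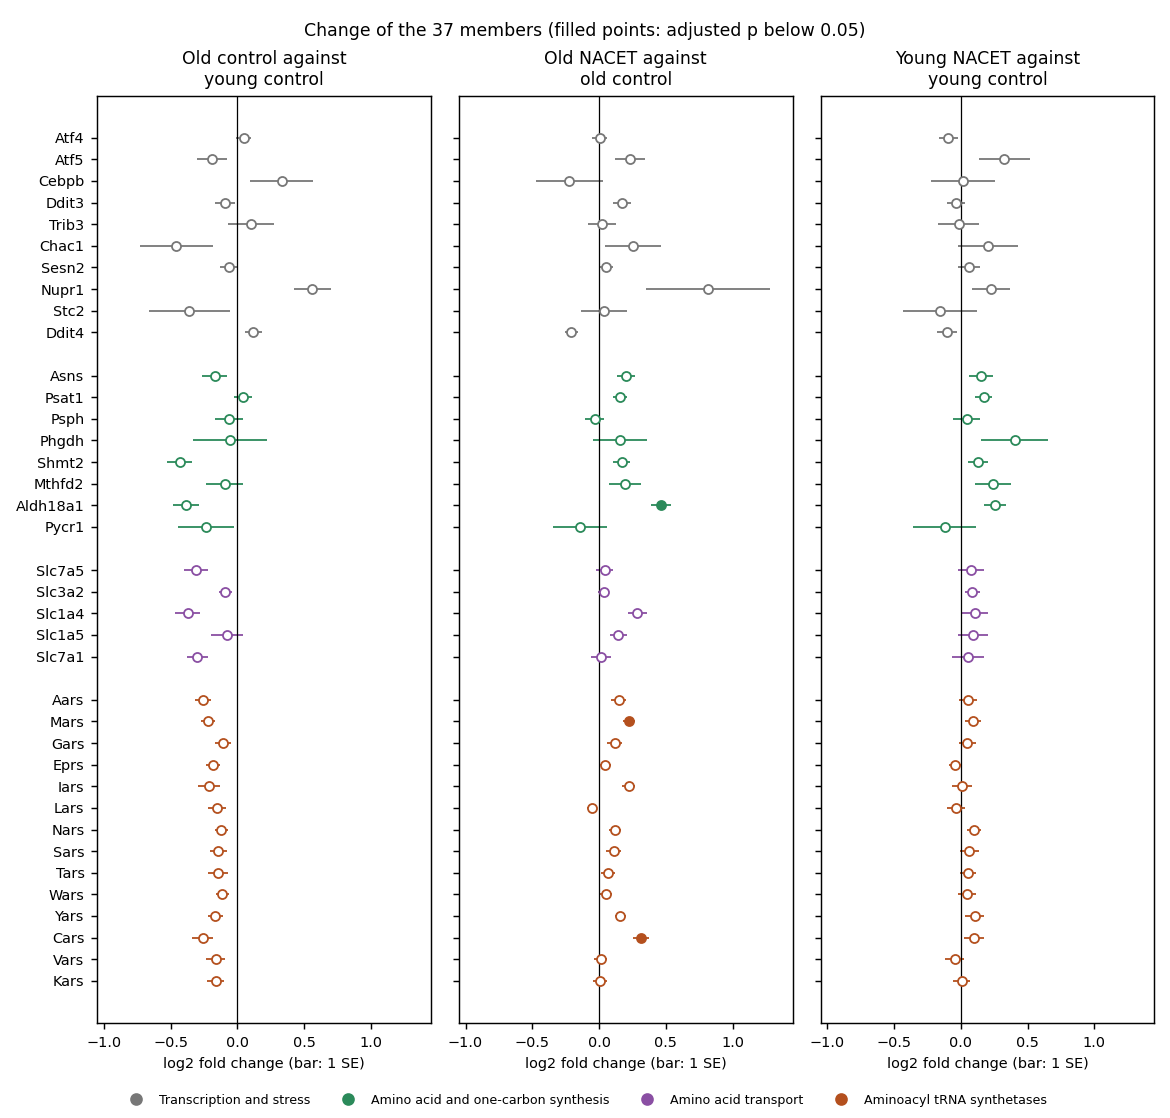
The log2 fold change of each of the 37 members, with 1 SE to each side, for old against young controls (left), NACET against control in old mice (middle) and NACET against control in young mice (right). Filled points have an edgeR adjusted p below 0.05. On the left all 14 synthetases lie left of 0 and no point is filled, in the middle 13 of 14 lie right of 0 and Aldh18a1, Mars and Cars are filled, and on the right no point is filled.

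NACET in old mice was examined by comparing the old NACET with the old control group. Most members were higher under NACET, and the rise passed the test for Aldh18a1, Cars and Mars. The share called was 8.11% of members against 0.543% of the 16562 genes tested. A positive log2 fold change was found for 32 of 37 members, with a median of 0.12, where 50.8% of all genes were positive. At an unadjusted p under 0.05, 13 members (35.1%) were higher and 1 (2.70%) lower, against 6.68% and 7.77% of all genes. The old control libraries served in this comparison and in that of aging, so the values for NACET and for age in these genes are not independent of each other.

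Aldh18a1 rose to 35.6 ± 3.02 CPM (SD, n = 6), the old control mean being 25.6 ± 1.90 CPM (SD, n = 4). The gene lies on the minus strand of chromosome 19, at 40624747 to 40662953 in mm9. Its old controls were at 24.2, 23.9, 26.7 and 27.8 CPM, and the 6 NACET libraries ran from 30.4 through a median of 37.2 to 37.8 CPM. Every NACET library lay above every control, with a log2 fold change of 0.46 (SE 0.07, adjusted p 0.0185), a rise of 37.97%. When libraries were left out one at a time its call was kept in 8 of 10 cases and lost without old control replicate 2 (adjusted p 0.0717) and without old NACET replicate 3 (0.0528).

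Cars rose to 60.2 ± 4.57 CPM (SD, n = 6), with old controls at 48.3 ± 2.92 CPM (SD, n = 4). This gene, on the minus strand of chromosome 7 at 150743135 to 150785995 in mm9, encodes the enzyme that charges tRNA with cysteine, the amino acid that NACET delivers. The controls were at 48.5, 47.7, 51.9 and 44.8 CPM, and the NACET libraries ran from 53.0 through 61.8 to 64.6 CPM without overlap, at a log2 fold change of 0.31 (SE 0.06, adjusted p 0.0428). Mars, on the minus strand of chromosome 10 at 126733277 to 126748842, rose from 88.2 ± 1.31 to 103.5 ± 5.67 CPM. Its controls were close together at 89.3, 89.4, 87.4 and 86.8 CPM, and all 6 NACET libraries were above them, at 94.3 to 108.8 CPM with a median of 104.5 CPM. The log2 fold change was 0.22 (SE 0.05, adjusted p 0.0495), so that Mars passed the threshold narrowly. With 1 library left out, Cars was called in 2 of 10 cases (without old control replicate 3 or old NACET replicate 2) and Mars in 1 of 10 (without old NACET replicate 2). The adjusted p-values of both were highest without old control replicate 2, at 0.128 and 0.141. The number of members higher at an unadjusted p under 0.05 was lowest, at 8, without old control replicate 1. Mars shares 68 exonic bases, 1.99% of its exon length, with Ddit3 on the opposite strand, and the counting ignored strand.

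Age differs inside the old NACET group, since all old controls were 668 days old and only 2 of the 6 NACET mice were. The batch label differs in the same way. Old NACET replicates 3 to 6 had batch labels of 581 or 574 days, which no old control had. In these mice NACET, age and batch label cannot be told apart. In the 2 NACET mice aged 668 days Aldh18a1 was at 30.4 and 37.5 CPM, Cars at 53.0 and 64.6 CPM and Mars at 94.3 and 106.8 CPM, each above its 4 controls. The fit on 668-day mice alone gave log2 fold changes of 0.39, 0.28 and 0.18 for these genes, with adjusted p-values of 0.532, 0.532 and 0.546. No member was called there, and 7 were higher and 1 lower at an unadjusted p under 0.05. Without the libraries with lens or corneal transcripts the values were 0.42, 0.29 and 0.23, with adjusted p-values of 0.0531, 0.123 and 0.139 and 0 members called, 14 being higher and 2 lower at an unadjusted p under 0.05.

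Among the synthetases, 13 of 14 were higher under NACET in old mice, with a median log2 fold change of 0.11 and 6 of 14 at an unadjusted p under 0.05. Beside Cars and Mars, these were Iars (0.22, adjusted p 0.0658), Yars (0.16, adjusted p 0.113), Aars (0.15, adjusted p 0.254) and Nars (0.12, adjusted p 0.234). Iars, the isoleucyl synthetase, was at 79.7, 81.2, 86.3 and 74.6 CPM in controls and at 88.6 to 102 CPM under NACET, with no overlap. Vars, Kars and Eprs were at 0.012, 0.0057 and 0.041, and Lars alone was negative at -0.050 (SE 0.04, adjusted p 0.584). In the 668-day mice alone 12 of 14 were higher, with a median of 0.033.

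The mean log2(CPM + 0.5) over the 14 synthetases was 6.504 to 6.539 in the 4 old controls, below the 6.61 to 6.72 of young controls and the 6.56 to 6.70 of the old NACET group. The old NACET range overlapped that of young controls. The spread of this class among old controls was small, with a median coefficient of variation of 3.76% over the 14 genes, against 6.5% in young controls. For synthesis and transport genes the old NACET range overlapped that of old controls.

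**Figure D4:**
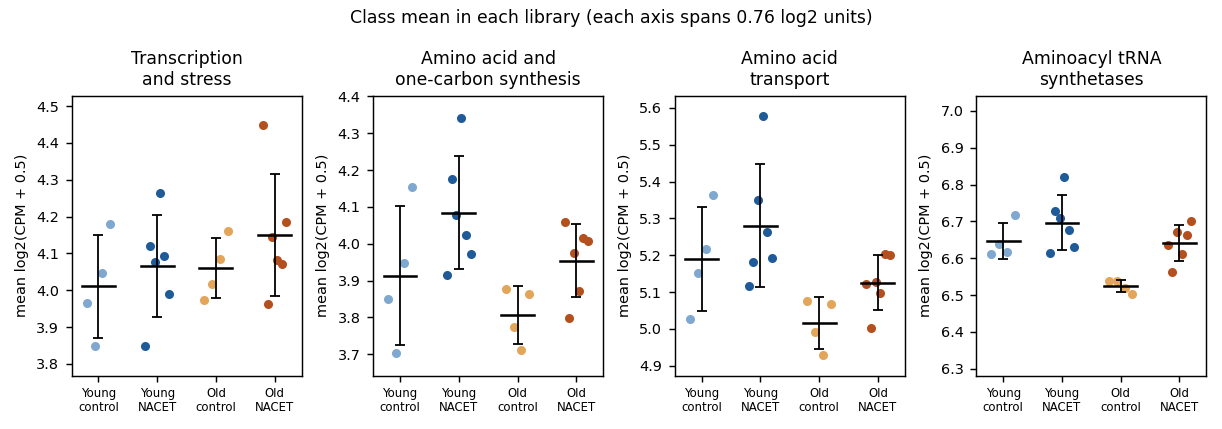
Mean log2(CPM + 0.5) over the genes of each class in each library, with group mean and SD. The 4 old controls lie at 6.504 to 6.539 in the synthetase panel, below all other libraries there. In the other 3 panels the old controls overlap both the young controls and the old NACET mice.

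Of the 8 synthesis genes 6 were higher under NACET in old mice, with a median of 0.16. Beside Aldh18a1, those at an unadjusted p under 0.05 were Asns, Psat1 and Shmt2, with log2 fold changes of 0.20, 0.16 and 0.17 and adjusted p-values of 0.177, 0.185 and 0.250. Mthfd2, a mitochondrial enzyme of the folate cycle, was at 0.19 (SE 0.12, adjusted p 0.470). The 5 transporters were all positive with a median of 0.044. Slc1a4 was the most different, from 20.8 ± 1.98 to 25.5 ± 1.88 CPM with overlap (log2 fold change 0.29, SE 0.07, adjusted p 0.0877), and Slc1a5 went from 12.8 ± 0.393 to 14.2 ± 0.415 CPM without overlap (0.14, SE 0.06, adjusted p 0.310). Slc7a5, Slc3a2 and Slc7a1 lay between 0.013 and 0.044.

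Among transcription and stress genes 8 of 10 were positive, and the median was 0.046. Atf4 was at 265 to 308 CPM with a median of 298 CPM in old NACET mice, which spans the 273 to 302 CPM of old controls, and its log2 fold change was 0.0034 (SE 0.06, adjusted p 0.989). Ddit4 was the member with a negative value at an unadjusted p under 0.05. It was at 133, 122, 129 and 125 CPM in controls and at 101 to 119.6 CPM under NACET, without overlap, with a log2 fold change of -0.21 (SE 0.05, adjusted p 0.0663). DESeq2 called it, together with Iars, Slc1a4 and Yars and the 3 genes above. Ddit3 differed by 0.17 (SE 0.06, adjusted p 0.240). Nupr1 had the largest log2 fold change, 0.82, but with an SE of 0.46 and an adjusted p of 0.436. Its level was 52.2 CPM in old NACET replicate 1, the library with lens transcripts, and 9.19 to 11.4 CPM in the other 5. Without that library the value was 0.056 (SE 0.11, adjusted p 0.872), and the part of the lens tissue in it was not tested.

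**Figure D5:**
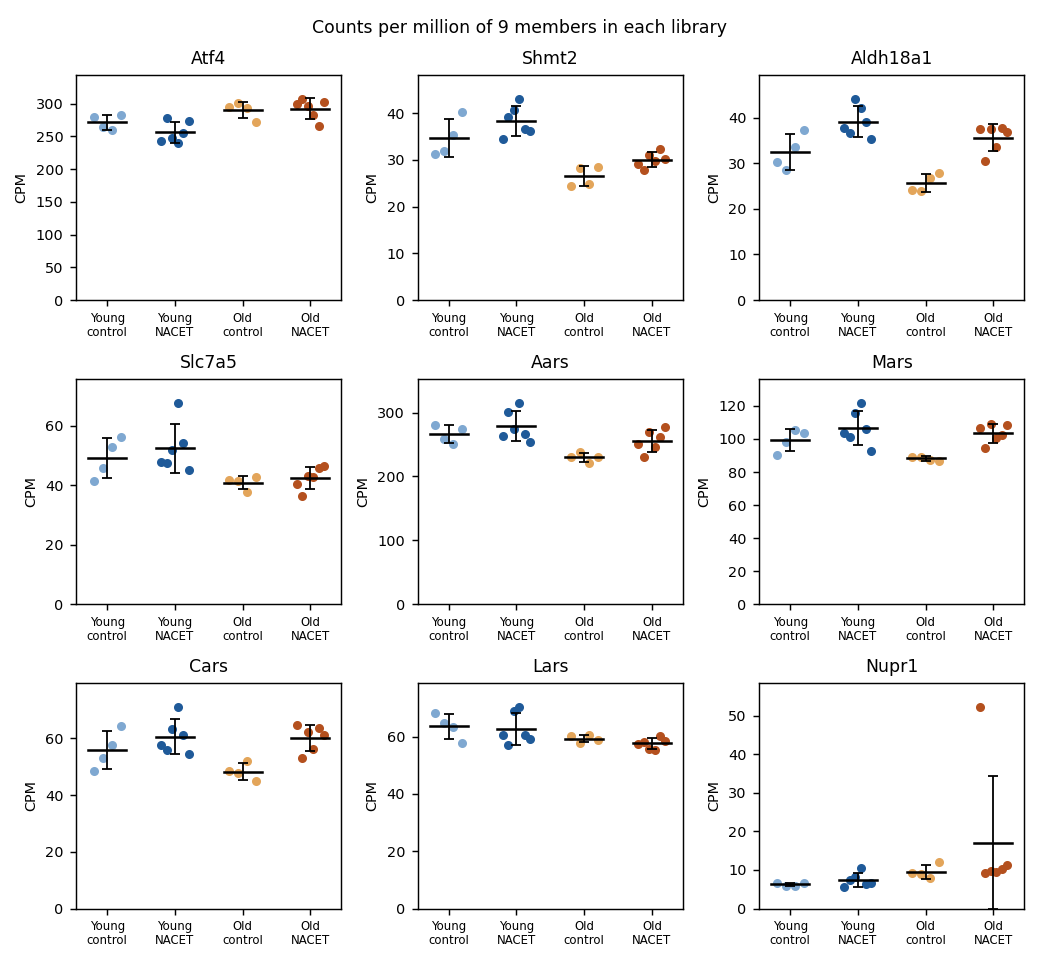
CPM of 9 members in each of the 20 libraries, with group mean and SD on axes that start at 0. Atf4 differs little between the groups, the old controls of Aldh18a1, Mars and Cars lie below all 6 old NACET libraries, and 1 old NACET library of Nupr1 reaches 52.2 CPM.

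NACET in young mice called 0 of the 37 members with edgeR and 0 with DESeq2, and 0% of all 16588 genes. At an unadjusted p under 0.05, 2 members (5.41%) were higher and 0 lower, against 2.19% and 2.18% of all genes. Aldh18a1 was at 39.1 ± 3.36 CPM (SD, n = 6) under NACET and 32.4 ± 3.89 CPM (SD, n = 4) in controls, at a log2 fold change of 0.26 (SE 0.08, adjusted p 1.0) and with overlap. Psat1 was at 30.2, 31.7, 33.0 and 32.3 CPM in controls and at 33.2 to 41.1 CPM under NACET, with no overlap and a log2 fold change of 0.17 (SE 0.06, adjusted p 1.0). A positive value was found for 28 of 37 members, including 7 of 8 synthesis genes (median 0.16), 5 of 5 transporters (0.087), 11 of 14 synthetases (0.052) and 5 of 10 transcription and stress genes (0.0012). Of the young NACET mice 4 were aged 129 days and the controls 119 days. The batch label, which disagrees with the stated age of young NACET replicate 6, was that of the controls in young NACET replicate 5 only. With this label as a covariate the NACET value therefore rests on replicate 5 against the controls, and 25 of 37 were positive. Leaving out young control replicate 4, the highest library of its group for most members, raised the number at an unadjusted p under 0.05 to 8, and so did leaving out the Xist-expressing libraries. Without young NACET replicate 1 the number was 4 higher and 1 lower.

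The effect of NACET was not shown to differ between the ages. The interaction of NACET and age passed the threshold for 0 of 37 members with edgeR, 0 with DESeq2 and 0% of all 16993 genes. At an unadjusted p under 0.05, 2 members (5.41%) had a larger log2 fold change in old mice and 0 a smaller one, against 2.27% and 3.93% of all genes. These were Iars (0.21, SE 0.09, adjusted p 0.727) and Ddit3 (0.21, SE 0.09, adjusted p 0.774), and without the libraries with lens or corneal transcripts 0 were. For Aldh18a1 the interaction was 0.20 (SE 0.11, adjusted p 0.832) and for Cars 0.21 (SE 0.10, adjusted p 0.803). A p-value that misses the threshold does not show that the effects were alike. The number at an unadjusted p under 0.05 was also 0 without the Xist-expressing libraries and without young control replicate 4, old control replicate 1 or old NACET replicate 1, and it was 1 without young control replicate 3, young NACET replicate 3, old control replicate 4 or old NACET replicate 6.

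Age was also compared within treated mice, old NACET against young NACET, in which no control library takes part. Shmt2, Slc7a5 and Lars fell with age under NACET, 8.11% of members, against 4.88% of the 16276 genes tested. In all, 30 of 37 members were negative with a median of -0.11. At an unadjusted p under 0.05, 13 members (35.1%) were lower and 2 (5.41%) higher, against 10.7% and 10.4% of all genes. Synthetases were negative in 14 of 14 cases, from -0.17 to -0.0047 with a median of -0.11, and transporters in 5 of 5, with a median of -0.20. These values include the TMM scaling. In mean CPM, which lacks it, Iars was at 91.5 in young and 94.2 in old NACET mice. Gars was at 130.6 and 131.0 CPM, and the other synthetases were lower in old mice. Synthesis genes were negative in 7 of 8.

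Shmt2, on the minus strand of chromosome 10 at 126954195 to 126959491 in mm9, fell to 30.1 ± 1.55 CPM in old mice, the young mean being 38.4 ± 3.21 CPM (SD, n = 6 in both). The young libraries ran from 34.5 through 37.9 to 43.1 CPM and the old ones from 27.9 through 30.0 to 32.4 CPM, without overlap. The log2 fold change was -0.40 (SE 0.05, adjusted p 0.000104), and the call was kept without any 1 of the 12 libraries, with the sex covariate (adjusted p 0.000188) and without the libraries with lens or corneal transcripts (0.00319). Slc7a5, on the minus strand of chromosome 8 at 124405052 to 124431594, fell from 52.4 ± 8.19 to 42.5 ± 3.68 CPM, with overlap and a log2 fold change of -0.35 (SE 0.08, adjusted p 0.0121). Its highest value, 67.7 CPM, was that of young NACET replicate 4. The call was also kept without any 1 library but not without the libraries with lens or corneal transcripts (-0.23, adjusted p 0.109). Lars, the leucyl synthetase, fell from 62.8 ± 5.52 to 57.6 ± 1.88 CPM, with overlap and a log2 fold change of -0.17 (SE 0.05, adjusted p 0.0397), and was called in 5 of 12 cases with 1 library left out (young NACET replicates 2, 5 and 6, old NACET replicates 5 and 6). It was not called without the libraries with lens or corneal transcripts (-0.16, adjusted p 0.194) or with the replicate number as a block (adjusted p 0.144). The 2 members higher in old mice at an unadjusted p under 0.05 were Atf4 (0.14, SE 0.06, adjusted p 0.179) and Nupr1 (1.15, SE 0.39, adjusted p 0.102). Without old NACET replicate 1 the value of Nupr1 was 0.39 (adjusted p 0.0995), and without the libraries with lens or corneal transcripts it was 0.48 and passed the threshold (adjusted p 0.037).

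The members with the element in their promoter window and those without it are given side by side as a description. In aging the 11 genes with it had a median log2 fold change of -0.17, 2 of them being positive, and the 19 without it a median of -0.094, 4 of them being positive. For NACET in old mice the medians were 0.16 (10 of 11 positive) and 0.055 (16 of 19 positive), and in young mice 0.055 and 0.063. The genes with it include 5 synthetases, so class and element are not separate here. Aldh18a1 and Shmt2 had no match in their windows.

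A further 59 genes of the pathway were read from the same fits, of which 58 could be tested. Among the 14 genes of eIF2, its exchange factor, its kinases and its phosphatases, 0 were called in any comparison. The smallest adjusted p there in aging was that of Gcn1l1, which activates the kinase GCN2 (log2 fold change -0.15, adjusted p 0.218), and for NACET in old mice that of Eif2ak4, GCN2 itself (-0.18, SE 0.05, adjusted p 0.117). Of the 18 other ATF4 targets tested, 1 was called in aging. This was Atf3, a stress-induced partner of ATF4, which rose to 17.8 ± 1.23 CPM, the young controls being at 11.3 ± 1.08 CPM (SD, n = 4 in both), at a log2 fold change of 0.60 (SE 0.09, adjusted p 0.00655). Atf3 also rose with age under NACET (0.65, SE 0.10, adjusted p 0.000869), and Cth, which makes cysteine from cystathionine, fell there from 4.87 ± 0.952 to 3.3 ± 0.331 CPM (-0.60, SE 0.12, adjusted p 0.00847). For NACET in old mice 0 of the 18 were called, and Slc38a2, a neutral amino acid carrier, came closest (0.27, SE 0.07, adjusted p 0.0822).

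Of the 9 other cytosolic synthetases and scaffold proteins, 0 were positive in aging, with a median of -0.11 and 1 at an unadjusted p under 0.05 (Farsb, -0.19, adjusted p 0.187). For NACET in old mice 7 of 9 were positive, with a median of 0.059, Eef1e1 coming first (0.19, adjusted p 0.156). In young mice 2 of 9 were positive under NACET, with a median of -0.021, where 11 of the 14 member synthetases were positive. The 17 mitochondrial synthetases were positive in 9 cases in aging, with a median of 0.0045, and in 10 cases for NACET in old mice, with a median of 0.030. No gene of either list was called in any comparison. The mitochondrial genes with the smallest p were Aars2 in aging (-0.10, adjusted p 0.467), Nars2 for NACET in old mice (0.18, adjusted p 0.290), Sars2 in young mice (0.19, adjusted p 1.0) and Hars2 for age under NACET (0.16, adjusted p 0.0575). Among the cytosolic ones Farsb came first in young mice (-0.10, adjusted p 1.0) and Rars for age under NACET (-0.14, adjusted p 0.0684).

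Markers of some retinal and other cells also differed in level between the groups. The summed level of 6 microglial markers was 17.6 to 25.2 CPM in young and 26.6 to 29.2 CPM in old controls, without overlap, and 27.1 to 33.6 CPM in old NACET mice. That of 6 pigment epithelium markers was 337 to 425 CPM in young and 428 to 484 CPM in old controls, also without overlap, and 374 to 458 CPM in old NACET mice. Most of this sum was Rlbp1, at 308 to 400 CPM over all libraries, which is also a marker of Muller glia. The mean log2(CPM + 0.5) of the 6 overlapped, at 2.61 to 4.09 in young and 3.53 to 4.26 in old controls. The summed level of 6 rod markers was 74548 to 89827 CPM in young and 65246 to 78949 CPM in old controls, with overlap, and 58503 to 70183 CPM in old NACET mice. Sums in young and old controls also overlapped for Muller glia (2396 to 3008 and 2700 to 3138 CPM) and endothelium (107 to 182 and 143 to 191 CPM). The same held for blood (6.44 to 21.8 and 6.58 to 91.4 CPM), which was at 5.15 to 7.41 CPM in old NACET mice. For 6 retinal ganglion cell markers the mean log2(CPM + 0.5) was 6.48 ± 0.17 (SD, n = 4) for the old controls. It was 6.66 ± 0.20 for the 4 young controls and 6.66 ± 0.165 for the 6 treated old mice. It was thus lower in old controls than in both other groups, as the synthetase mean was, but here the ranges of the groups overlapped. Their part in the differences above was not tested.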

How the data were processed

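The values deposited by the authors are raw read counts per gene, 1 column a library. Per the labels and methods, TruSeq v2 libraries from poly(A) RNA were read single-end, aligned to mm9 with TopHat 2.1.0 and counted over exons with HTSeq-count 0.11.2 without strand. The annotation is not given in the sources used here. Gene positions, exon lengths and 32-base windows were read from GENCODE vM1 on mm9. Rows that name no gene were left out of library totals. An unnamed row held at most 0.0022% of gene counts, reads without a feature 14.1 to 20.5%, ambiguous reads 1.09 to 1.20% and reads aligned more than once 6.65 to 7.92%.

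Counts were analysed with edgeR 4.0.16 in R 4.3.3, with TMM normalization, filterByExpr and the quasi-likelihood test, on the 2 groups compared (all 20 libraries for the interaction). P-values were adjusted over all genes tested by Benjamini-Hochberg. The study used DESeq2, here an alternative (1.42.0). Full statistics were given for members with an adjusted p under 0.05, or where there were none an unadjusted p under 0.05, at most 8 a comparison by p. Other members were summarised or named beside their class, after their values were seen. Further pathway genes were named when called, otherwise the smallest p of a list. The members and lists were chosen with earlier results of these data known. CPM was the count over the gene total, without TMM factors. Fits were tested on simulated data. A count of 3 reads corresponds to at most 0.17 CPM in any library, which is a floor and not the counting error of a member. No 2 replicates agreed within sampling noise (chi-square per degree of freedom 2.63 to 34.7 over 42 pairs). The labels describe mice, with 1 library each, so that spread holds differences of animal, dissection and library together. Promoter sequences are those of RefSeq, GRCm38.p6, with renamed symbols (Aars1 for Aars and the like) matched by synonym. One further promoter match is not reported here.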

Additional observations from a re-analysis of the deposited data

Results flagged for a closer look

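In 7 of 148 combinations of a member and a group, 1 library stood far from the others by Dixon's criterion (4.73%, where chance gives about 1 in 20). Nupr1 was at 52.2 CPM in old NACET replicate 1, the library with lens transcripts, against 9.19 to 11.4 CPM in the other 5. Psph, the last enzyme of serine synthesis, was at 17.9 CPM in the same library, below the 19.9 to 20.8 CPM of the others. Sesn2 was highest in old NACET replicate 6 at 27.4 CPM, with 24.7 to 25.7 CPM in the others. Atf5 was at 42.6 CPM and Pycr1 at 1.92 CPM in young NACET replicate 4, a library with corneal transcripts, against 18.7 to 24.9 CPM and 0.865 to 1.24 CPM in the others, and Pycr1 was lowest in old NACET replicate 4 at 0.589 CPM, against 1.02 to 1.25 CPM. Tars was at 56.3 CPM in old control replicate 3, above the 49.9 to 50.7 CPM of the other 3 old controls.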

How the results depend on the processing

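The number of members called depended on the method more than the log2 fold changes did. Over 112 recomputed counts, 88 were within 1.5 times the reported one. Of these, 22 for NACET in young mice, 29 for the interaction and 11 for aging were 0 against 0. For NACET in old mice 6 of 21 were within this limit and 15 were not, and for age under NACET 20 of 22 were. In aging, with 0 called, DESeq2 called 9, all 4 groups in 1 fit gave 6, and no filter, a filter at 1 CPM and a robust fit gave 1 each, while leaving out 1 library gave 0 to 4. For NACET in old mice, with 3 called, DESeq2 called 7, libraries without Xist gave 1, and 0 were called with all 4 groups in 1 fit, in 668-day mice only, with the 668-day cohort as a covariate and without lens or keratin libraries. The last alternative was chosen after seeing the data. Leaving out 1 library gave 0 to 3. For age under NACET, with 3 called, DESeq2 called 7 and all 4 groups in 1 fit gave 5, and leaving out 1 library gave 2 to 4. NACET in young mice and the interaction called 0 in every fit, with leave-one-out ranges of 0 to 0. Replicate numbers are shared between groups, and the deviations of same-numbered libraries correlated at -0.20 to 0.28, above 0.1 in 4 of 18 pairs. Differently numbered libraries were not correlated for comparison, so the check cannot tell whether the numbers pair libraries. With the replicate number as a block 0 members were called for NACET in old mice, 2 for age under NACET and 0 in aging, NACET in young mice and the interaction. Of 448 class medians 444 moved by less than the spread between replicates. Values of single members were compared only for the 51 results with an unadjusted p under 0.05 in the main fit. Of these 1049 values 962 kept their side of the threshold, 48 lost a call, 39 gained one and 0 changed direction. Results picked by their p seldom change direction, and the other results of the members are not covered. The cause of these changes was not tested. The number of mice limits the precision, the SE of the synthetases being 0.05 to 0.08 in aging and 0.04 to 0.06 for NACET in old mice on the log2 scale. The part of depth in this was not tested.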

Other observations

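Some libraries held several members at an extreme at once. Young NACET replicate 4 was the highest of its group for 8 of 14 synthetases, 6 of 8 synthesis genes and 3 of 5 transporters, with Slc7a1 at 48.3 CPM and Asns at 67.8 CPM. Young control replicate 4 was the highest of its group for the same numbers of synthetases and synthesis genes and for 4 of 5 transporters. In old mice NACET replicate 2 was the lowest of its group for 7 of 14 synthetases, 5 of 8 synthesis genes and 3 of 5 transporters, with Chac1 at 2.79 CPM.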
